A study of Homo sapiens with 3 samples.

Results

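The DEAD and DEAH box RNA helicases are described here, as 39 genes of the 11741 with 1 symbol that could be tested. Members were the genes whose symbol starts with DDX or DHX and a digit and that had at least 1 probe with values on at least 2 of 3 arrays. 6 DDX genes (DDX10, DDX18, DDX21, DDX47, DDX52 and DDX56) were left out by the same definition. Of the 39, 25 are DDX and 14 are DHX genes, read by 54 probes. Besides 37 protein-coding genes they include DDX11L2 and DDX11L5, which carry the name but are annotated as pseudogenes. Another 4 helicase genes (DDX19B, DDX51, DDX60L and DHX37) had values on 1 array only and were not tested.

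RNA helicases of these families use ATP to pry apart short RNA duplexes or to strip proteins from RNA. They are named after the amino acids of the motif that binds ATP, Asp-Glu-Ala-Asp in the DEAD box family and Asp-Glu-Ala-His in the DEAH box family. DEAD box proteins typically open a duplex locally, whereas DEAH box proteins typically move along a single strand and pull on it, often switched on by a partner protein with a G-patch. Each step of RNA life has its own members: splicing, export, translation, decay, ribosome assembly and the sensing of viral RNA.

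The study exposed BEAS-2B cells, a line of human bronchial epithelium made permanent by viral transformation, to MTX, the label's abbreviation, at 0.144 µM for 48 h after 24 h in culture. That dose is described as giving 20% inhibition. On each of 3 arrays, Cy5-labelled RNA of MTX-treated cells was set against Cy3-labelled RNA of DMSO-treated cells. The arrays form 1 group of 3 ratios, and the dyes were never exchanged. Each value is a log ratio of MTX over DMSO, and a gene-specific dye effect is part of it. The submitters do not name the base of the logarithm, and folds are given for base 10 and for base 2.

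The direction is taken from the labelled dyes and was not checked against scanner signals. Values were present for 21224, 25272 and 25927 probes on arrays 1, 2 and 3. Array 3 stood apart: across genes with 3 values the Pearson correlation was 0.815 between arrays 1 and 2, against 0.504 and 0.566 for array 3 with arrays 1 and 2. Across the 32 helicase genes with 3 values it was 0.807, 0.473 and 0.373 for the same pairs. These are descriptions over genes that share their arrays. Nothing says that the arrays came from separate cultures, so p-values reflect only how far these arrays differ, which may be technical. Of 8 epithelial markers 6 had values on at least 2 arrays, and KRT5 and CDH1 had none. Of 5 markers of other cells only CD3E did. Ratios give no level, so that the cell type could not be checked further. Fewer cells of a kind and less RNA per cell cannot be told apart in such samples.

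With MTX, DDX20 and DDX49 rose and DDX23 and DHX35 fell (limma, Benjamini-Hochberg adjusted p under 0.05), and 35 of the 39 helicase genes did not pass. The 2 higher members are 5.13% of the 39, against 8.16% of all genes tested called higher, and the 2 lower members are also 5.13%, against 5.75% of all genes called lower. In either direction 10.3% of the helicase genes were called, against 13.9% of all genes. Without the probes that lacked a value on some array, 13 of 32 members (40.6%) were called, 4 higher and 9 lower, against 29.0% of the 9394 genes of that fit, 16.6% higher and 12.4% lower. Without array 3, 5 of 33 rose and 9 fell, where 40.2% of all genes were called in either direction. That share was not split by direction, so the 5 and the 9 cannot be judged singly. Without array 1 or array 2 none of the helicase genes passed, nor did any other gene (2742 and 2272 genes had an unadjusted p under 0.05).

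The helicase means were small and centred near 0. They ran from -0.17 to 0.20, with a median of -0.0078, against a median of 0.0060 over all genes tested. In 27 of 39 members the mean lay within 0.1 of 0. The largest difference, that of DDX20, is 1.59-fold if the values are base 10 logs and 1.15-fold if they are base 2 logs. Of the 32 members with 3 values, 9 were above 0 on every array (28.1%, against 33.3% of all genes with 3 values) and 13 below 0 on every array (40.6%, against 28.8%). The remaining 10 had both signs. The median was -0.0081 for DDX genes and 0.013 for DHX genes.

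**Figure D1:**
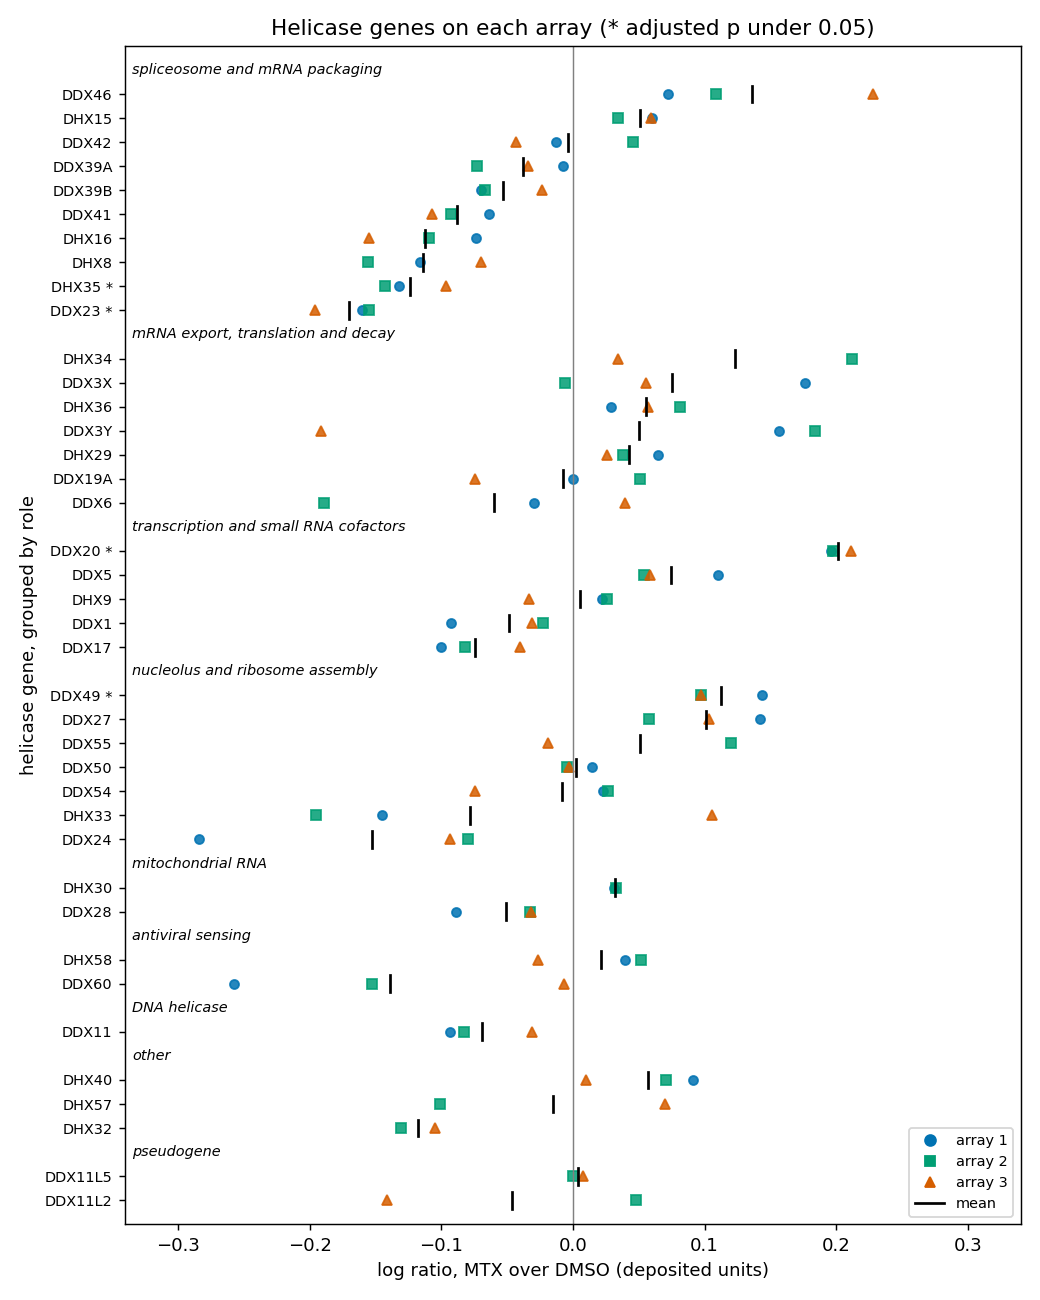
Log ratio of MTX over DMSO (x axis, deposited units) of the 39 helicase genes on each array, grouped by role, with a bar at the mean and an asterisk for adjusted p under 0.05. Of the 10 members grouped under spliceosome and mRNA packaging, 7 lie left of 0 on every array. Of all genes with 3 values 28.8% do. DDX20 sits near 0.20 on all 3 arrays, and array 3 departs from the other arrays for DHX33 and DDX3Y.

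**Figure D2:**
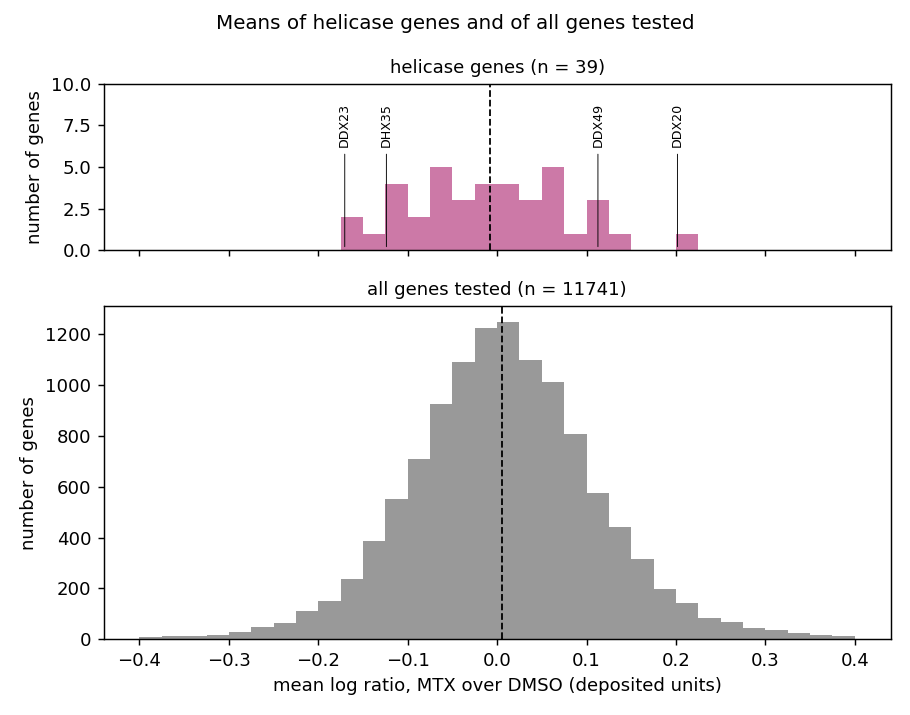
Number of genes (y axis) by mean log ratio of MTX over DMSO (x axis, deposited units) for the 39 helicase genes above and the 11741 tested genes below, with dashed lines at the medians. The helicase means lie inside the range of all genes, 41 of which fall outside the axis, beyond 0.4 on either side.

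The promoter windows of 5 members are shown. DDX20, DDX23 and DHX35 passed the test. DHX8 and DHX16, which did not pass, were added as further spliceosomal helicases below 0 on every array. Other members that did not pass, among them DDX24, DDX60 and DDX46, had means further from 0 and are not shown. No window is given for DDX49. The windows are RefSeq's (GRCh38.p14), printed 5′ to 3′ on the gene's strand from 250 bases before the start site to 50 bases after. They lie at chr1:111755651-111755950, plus strand, for DDX20; chr12:48852114-48852413, minus strand, for DDX23; chr20:38962094-38962393, plus strand, for DHX35; chr17:43483725-43484024, plus strand, for DHX8; and chr6:30672957-30673256, minus strand, for DHX16. Capitals mark matches to the motifs searched.
DDX20: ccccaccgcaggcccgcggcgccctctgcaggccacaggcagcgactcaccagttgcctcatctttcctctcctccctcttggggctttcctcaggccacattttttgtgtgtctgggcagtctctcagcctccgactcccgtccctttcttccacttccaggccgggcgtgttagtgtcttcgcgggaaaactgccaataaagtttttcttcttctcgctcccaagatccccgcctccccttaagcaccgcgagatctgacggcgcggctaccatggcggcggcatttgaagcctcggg
DDX23: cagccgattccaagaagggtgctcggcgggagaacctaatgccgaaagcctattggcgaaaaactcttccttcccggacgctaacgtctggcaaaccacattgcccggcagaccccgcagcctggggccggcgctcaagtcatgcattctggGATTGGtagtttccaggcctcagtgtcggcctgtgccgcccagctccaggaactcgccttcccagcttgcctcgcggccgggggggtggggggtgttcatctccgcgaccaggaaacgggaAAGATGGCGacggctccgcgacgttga
DHX35: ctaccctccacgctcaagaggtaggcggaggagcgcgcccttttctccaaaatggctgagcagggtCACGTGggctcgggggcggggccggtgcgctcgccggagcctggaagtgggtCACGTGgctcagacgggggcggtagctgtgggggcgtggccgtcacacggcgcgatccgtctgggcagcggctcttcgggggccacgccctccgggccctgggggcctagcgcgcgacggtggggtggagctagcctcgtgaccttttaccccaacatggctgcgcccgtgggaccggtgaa
DHX8: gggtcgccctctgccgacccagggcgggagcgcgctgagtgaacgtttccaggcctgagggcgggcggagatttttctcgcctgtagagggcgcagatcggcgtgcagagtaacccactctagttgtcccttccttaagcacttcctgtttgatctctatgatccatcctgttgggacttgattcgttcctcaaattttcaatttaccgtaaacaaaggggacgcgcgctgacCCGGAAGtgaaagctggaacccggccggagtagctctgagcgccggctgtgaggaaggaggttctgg
DHX16: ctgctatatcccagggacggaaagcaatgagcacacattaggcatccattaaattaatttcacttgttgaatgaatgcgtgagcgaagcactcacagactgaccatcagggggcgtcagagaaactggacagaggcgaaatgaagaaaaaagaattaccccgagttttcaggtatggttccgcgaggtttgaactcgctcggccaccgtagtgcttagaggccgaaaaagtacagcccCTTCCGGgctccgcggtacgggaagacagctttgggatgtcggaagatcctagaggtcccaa

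The motifs were searched on both strands in 34 helicase promoters and in the 15843 promoters of protein-coding genes, with the first window taken where a gene had several. DHX35 held the E-box CACGTG, the site bound by MYC and related factors, at 2 places, starting 184 and 132 bases before its start site. In all 6 of the 34 helicase promoters held it (17.6%), against 8.88% of all promoters. The ETS core CCGGAAG stood 17 bases before the start of DHX8 and, as CTTCCGG, 12 bases before that of DHX16. It was found in 15 of 34 helicase promoters (44.1%), 0 of them of called members, against 14.2% of all promoters. DDX23 held 1 NFY box, CCAATC read on the other strand, 98 bases before its start, a motif in 20.6% of the helicase promoters and 18.2% of all. It also held the YY1 core AAGATGGCG, starting at base 24 after its start site, as 1 of 34 helicase promoters and 2.74% of all. The DDX20 window held none of the 9 motifs searched. The E2F core TTTCGCGC was in 1 of 34 (0.814% of all), the NRF1 core GCATGCGC in 4 (4.26% of all) and the cAMP response element TGACGTCA in 3 (2.59% of all). TATAAA was in 2 (9.63% of all) and the ZNF143 core ACTACAATT in 0 (0.461% of all). No 2 matches overlapped in the windows shown. The 15843 promoters include those of genes without values on these arrays, whereas every helicase member had values. The shares therefore compare unlike sets, and whether they differ among measured genes was not tested. These are matches of letters and say nothing about binding.

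Helicases of the spliceosome and of mRNA packaging made up the largest role group, called spliceosomal below. It includes the export helicases DDX39A and DDX39B. Of its 10 measured members 2 fell and 0 rose, against 5.75% of all genes called lower and 8.16% called higher. The group's median was -0.071, against 0.0060 over all genes. DDX23, the counterpart of yeast Prp28, which hands the 5′ splice site over from U1 to U6, gave -0.160, -0.155 and -0.196 on arrays 1, 2 and 3. All 3 values lay well below 0 and close together. Its mean was -0.17 ± 0.0223 (SD, n = 3; limma adjusted p = 0.0285), a decrease of 1.48-fold on the base 10 reading and 1.13-fold on the base 2 reading. DHX35, a DEAH box protein found in catalytically active spliceosomes, gave -0.132, -0.143 and -0.0965, with a mean of -0.12 ± 0.0242 (SD, n = 3; limma adjusted p = 0.0423). It too was lower on every array, but with the local mean of neighbouring spots subtracted its mean was -0.087 and its limma adjusted p = 0.0883.

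DHX8 (Prp22 in yeast), which releases the finished mRNA, gave -0.116, -0.156 and -0.0695. DHX16 (Prp2), which activates the spliceosome for the first step, gave -0.0733, -0.109 and -0.155. Both were below 0 on every array without passing, with adjusted p-values of 0.0598 and 0.0589 by limma. DDX41, a DEAD box protein of late spliceosomes that is mutated in hereditary myeloid leukaemia, averaged -0.088 ± 0.0218 (n = 3, limma adjusted p = 0.0702). In the fit of probes complete on 3 arrays these genes passed, DHX8 with an adjusted p of 0.0333, DHX16 with 0.0327 and DDX41 with 0.0396.

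Over all probes the other spliceosomal helicases lay nearer 0 or above it. DDX46, the counterpart of Prp5 that helps U2 settle on the branch point, gave 0.0726, 0.109 and 0.228, a mean of 0.14 ± 0.0813 (n = 3, limma adjusted p = 0.0791). Its 2 probes were both above 0 on every array, so that the direction did not depend on the probe. DHX15 (Prp43), which takes apart spent spliceosomes, averaged 0.051 ± 0.0149 and had 3 values above 0 (limma adjusted p = 0.172). With the local mean of neighbouring spots subtracted its mean was -0.028. DDX42, a DEAD box protein of the U2 particle, had values of both signs and a mean of -0.0034. The related export helicases DDX39A and DDX39B averaged -0.038 and -0.053, with 3 values below 0 each, and neither passed over all probes. The 95% interval of DDX39B ran from -0.12 to 0.0094, and one of its probes, lacking array 1, lay at 0.016. On its complete probe alone DDX39B averaged -0.094 and was called lower (limma adjusted p = 0.0343). In the fit of complete probes 6 of the 10 spliceosomal members fell and 1, DDX46, rose, where 12.4% of all genes were called lower and 16.6% higher. DHX38 (Prp16) was not analysed here.

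Helicases that act on mature mRNA had 0 of 7 members called, where 13.9% of all genes were called. The group's median was 0.050, against 0.0060 over all genes. Here the probes of one gene often disagreed. DDX6, which represses translation and promotes decapping in P-bodies, had 3 probes. One of them, designed to a cDNA clone, gave -0.183, -0.189 and -0.117. The others, designed to the RefSeq mRNA, lacked array 2 and gave 0.0989 and 0.242 in 1 case and -0.0049 and -0.0064 in the other. The gene's averages of -0.0296, -0.189 and 0.0397 therefore mix different probes on different arrays, and the gene did not pass (limma adjusted p = 0.435). On the complete probe alone it was called lower (limma adjusted p = 0.0159).

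DDX3X, a helicase that helps ribosomes scan structured leaders, was read by 3 probes with mean log ratios of 0.118, 0.217 and -0.110. The second reached 0.550 on array 1 and was 0.0357 and 0.0656 on the others. The gene averaged 0.075 ± 0.0926 (n = 3, limma adjusted p = 0.258), and 0.025 without array 1. Its Y-linked copy DDX3Y gave 0.157, 0.184 and -0.191, and its last value averages 1 probe at -0.564 with another at 0.182. Without array 3 DDX3Y was called higher, at 0.17 (limma adjusted p = 0.00904), and without array 1 or array 2 its mean was -0.0035 or -0.017. How far probes of these near-identical copies tell them apart was not tested. DHX29, which assists initiation on structured leaders, had a probe at 0.153, 0.147 and 0.152 and another, designed to an expressed sequence tag, at -0.0232, -0.0716 and -0.100. The gene's mean of 0.043 stands between them. DHX36, which unwinds G-quadruplexes, averaged 0.056 ± 0.0264 and was above 0 on every array (limma adjusted p = 0.167). DHX34, a factor of nonsense-mediated decay, had 0.212 and 0.0342 on arrays 2 and 3 alone (limma adjusted p = 0.213), and the export helicase DDX19A had values of both signs with a mean of -0.0078.

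**Figure D3:**
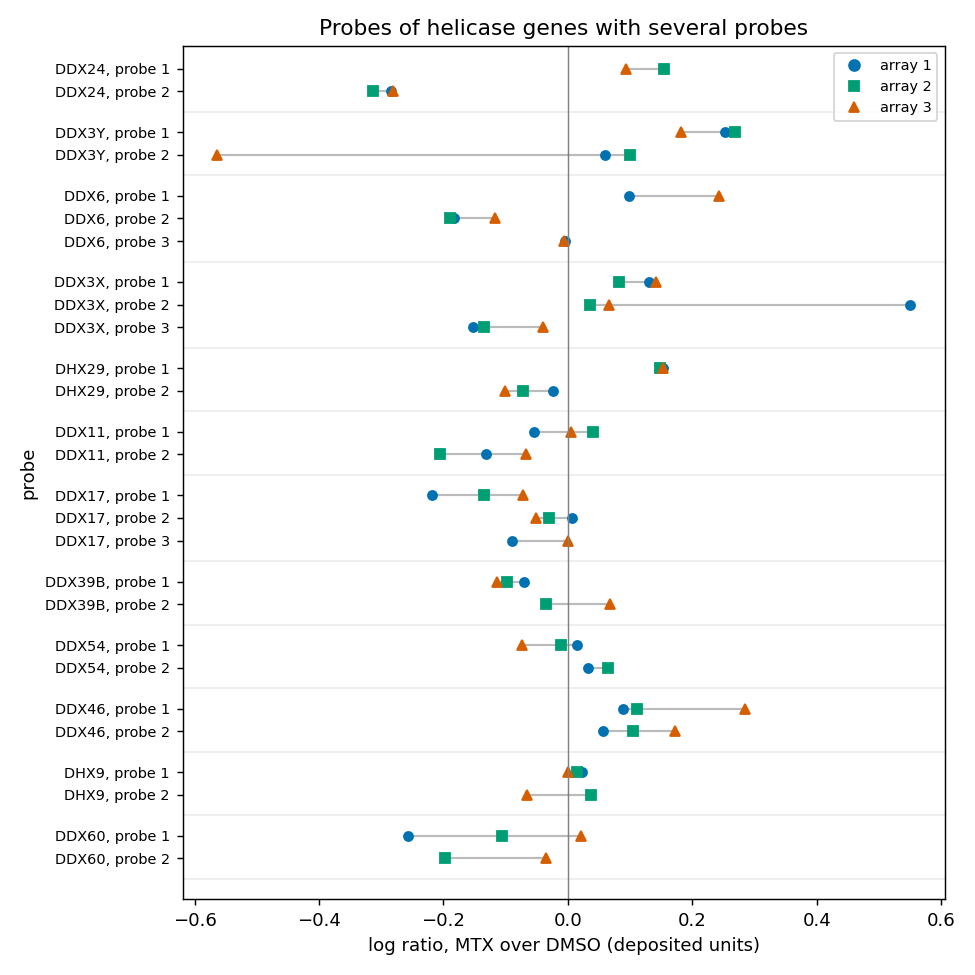
Log ratio of MTX over DMSO (x axis, deposited units) on each array for every probe of the 12 helicase genes with several probes, ordered by the gap between their probes. The 2 probes of DDX24 and of DHX29 lie on opposite sides of 0 on every array measured, and 1 probe of DDX6 lies below 0 on all 3 arrays while another lies above 0 on the 2 it was read on.

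Cofactors of transcription and small RNA pathways held the highest member. DDX20, also called Gemin3, is a core subunit of the SMN complex that loads Sm proteins onto spliceosomal RNAs. It gave 0.196, 0.198 and 0.211 on arrays 1, 2 and 3. All 3 values were nearly the same, and the mean was 0.20 ± 0.00840 (SD, n = 3; limma adjusted p = 0.0257). Its call was lost when array 1 or array 2 was left out (limma adjusted p = 0.145 and 0.105), as was every other. Among 7 measured partners in the SMN complex 0 rose and 0 fell, where 8.16% of all genes were called higher and 5.75% lower. The partners had means between -0.12 and 0.085 and a median of 0.022.

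The paralogues DDX5 and DDX17, which work with the microprocessor and with nuclear receptors, lay on opposite sides of 0. DDX5 gave 0.110, 0.0541 and 0.0584, and DDX17 gave -0.100, -0.0821 and -0.0405. Neither passed over all probes, with limma adjusted p-values of 0.107 for each, and their difference was not tested. With the local mean of neighbouring spots subtracted DDX5 averaged 0.013 (limma adjusted p = 0.789) and DDX17 -0.080. In the fit of complete probes DDX17 averaged -0.083 and was called lower (limma adjusted p = 0.0452), while DDX5 did not pass (limma adjusted p = 0.0679). The 3 tested probes of DDX17 had means below 0, from -0.14 to -0.025, while a probe read on array 3 alone gave 0.188 there. DHX9, RNA helicase A, averaged 0.0051 with a 95% interval from -0.061 to 0.071. DDX1, a helicase of the tRNA ligase complex, averaged -0.049 ± 0.0382 and was below 0 on every array. Of 3 measured microprocessor genes 0 were called, where 13.9% of all genes were.

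In the nucleolar group 1 of 7 members rose and 0 fell, against 8.16% of all genes called higher and 5.75% called lower. The group's median was 0.0022. In the fit of complete probes 2 of 6 rose and 1 fell, against 16.6% of all genes called higher and 12.4% lower. DDX49, whose yeast counterpart Dbp8 acts in assembly of the small ribosomal subunit, gave 0.144, 0.0977 and 0.0970, a mean of 0.11 ± 0.0267 (SD, n = 3; limma adjusted p = 0.0493). It was above 0 on every array but close to the threshold: the limma adjusted p was 0.0542 with centred arrays and 0.0536 with the local mean subtracted. DDX27, a factor of large subunit assembly, gave 0.142, 0.0576 and 0.104 (limma adjusted p = 0.0721). In the fit of complete probes it was called higher (limma adjusted p = 0.0423). With the local mean subtracted DDX27 averaged 0.057 (limma adjusted p = 0.237). DDX24, a nucleolar helicase, had the widest gap between probe means among the 12 genes with several probes, 0.417. One probe gave -0.284, -0.313 and -0.281, and another gave 0.154 and 0.0936 on arrays 2 and 3. Averaged, the gene lay at -0.15 ± 0.114 (n = 3, limma adjusted p = 0.104) and at -0.086 without array 1, while its complete probe alone was called lower (limma adjusted p = 0.00866).

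DHX33, linked to ribosomal RNA synthesis, went opposite ways, with -0.145 and -0.195 on arrays 1 and 2 and 0.106 on array 3. Without array 3 it was called lower, at -0.17 (limma adjusted p = 0.0104), and without array 1 or array 2 its mean was -0.045 or -0.019. The 1 tested probe of DDX50, a paralogue of DDX21, stayed within 0.0144 of 0 on every array, with a 95% interval from -0.056 to 0.060. A further DDX50 probe, read on array 2 alone, gave -0.0938. DDX54 and DDX55, whose yeast counterparts act on the large ribosomal subunit, averaged -0.0081 and, on 2 arrays, 0.051. Of the DDX genes left out by the definition 4 were tested and 1 passed, where 13.9% of all genes passed in either direction. That gene, DDX21, gave 0.216, 0.198 and 0.206. DDX10, DDX47 and DDX56 had means of 0.062, 0.014 and 0.0060.

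The smaller groups had 0 calls, where 13.9% of all genes were called. DDX60, a cofactor of antiviral RNA sensors, gave -0.257, -0.152 and -0.0069, a mean of -0.14 ± 0.126 (n = 3, limma adjusted p = 0.14). Its value on array 3 was close to 0, and without that array it was called lower at -0.20 (limma adjusted p = 0.0125). Without array 1 its mean was -0.080 (limma adjusted p = 0.380). DHX58 (LGP2), a regulator of the same sensors, averaged 0.022 ± 0.0421. DDX28 and DHX30, both needed for mitochondrial ribosome assembly, averaged -0.051 and 0.032, DHX30 on 2 arrays. DDX11, a DNA helicase of sister chromatid cohesion, averaged -0.069 ± 0.0332, with 1 probe at -0.13 and the other at -0.0032. DHX32 had -0.131 and -0.105 on arrays 2 and 3 (limma adjusted p = 0.0887). DHX40 averaged 0.057, DHX57 -0.015, and the pseudogenes DDX11L2 and DDX11L5 -0.047 and 0.0039, the last 3 on 2 arrays each. Of 4 helicases best known from germ cells (DDX4, DDX25, DDX43 and DDX53) 0 were measured.

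Over the 12 helicase genes with more than 1 probe, 8 had probe means of both signs, and the gap between lowest and highest probe mean had a median of 0.124. The 4 genes called over all probes have 1 probe each, so that no second probe was read for any of them. Tested probe by probe, 9 of 54 helicase probes were called, 5 higher and 4 lower. That is 16.7% of them, against 17.1% of all 23239 probes, 8.61% called higher and 8.44% lower. They belong to the 4 called genes and to DDX24 and DDX6 (lower) and DDX3X, DDX3Y and DHX29 (higher).

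Over the lists of genes that work with these helicases, with the DDX genes left out by the definition, 9 of 80 were called, 5 higher and 4 lower (6.25% and 5%). These shares are close to the 8.16% and 5.75% of all genes. In the list of decapping and deadenylation factors, which act with DDX6, 3 of 17 rose and 0 fell, with a median of 0.047, against 8.16% of all genes called higher. EIF4ENIF1 (4E-T), which binds DDX6 and the cap-binding protein, gave 0.185, 0.139 and 0.179, a mean of 0.17 ± 0.0248 (n = 3, limma adjusted p = 0.0292). PATL1, a scaffold that joins DDX6 to the decapping enzyme, averaged 0.13 ± 0.0288 (n = 3, limma adjusted p = 0.0399). The decapping enzyme DCP2 averaged 0.17 ± 0.0663, with its highest value, 0.249, on array 3 (limma adjusted p = 0.0445). All 3 genes were above 0 on every array.

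Of 17 G-patch proteins 2 fell and 0 rose, against 5.75% of all genes called lower. SUGP1, which works with DHX15 at the branch point, gave -0.187 and -0.216 on arrays 1 and 2, and GPKOW, a partner of DHX16, gave -0.144, -0.115 and -0.103. Their limma adjusted p-values were 0.0427 and 0.0431. Among 16 RNA helicases without a DDX or DHX symbol 1 rose and 1 fell, against 8.16% and 5.75% of all genes. EIF4A1, the initiation factor that is the founding DEAD box protein, gave -0.172, -0.197 and -0.246, a mean of -0.21 ± 0.0373 (n = 3, limma adjusted p = 0.0269), a decrease of 1.60-fold on the base 10 reading and 1.15-fold on the base 2 reading. HELZ, a zinc-finger helicase, averaged 0.15 ± 0.0286 (n = 3, limma adjusted p = 0.0353). Of 9 genes of TREX and mRNA export, partners of DDX39B, only THOC7, a subunit of the THO complex, passed, where 13.9% of all genes did. It averaged -0.19 ± 0.0242 (n = 3, limma adjusted p = 0.0269). Of 9 genes of the exon junction and nonsense-mediated decay 0 passed.

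**Figure D4:**
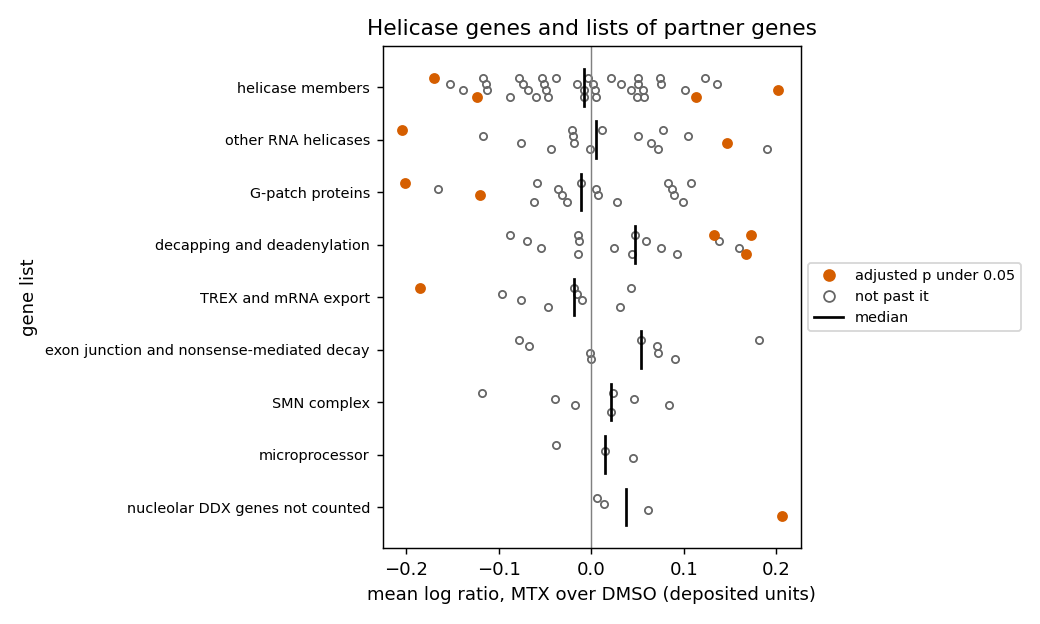
Mean log ratio of MTX over DMSO (x axis, deposited units) of each helicase gene, of partner genes by list and of the 4 tested DDX genes left out by the definition, with filled points for adjusted p under 0.05 and bars at the medians. The filled points are 4 helicase members, 3 decapping genes to the right of 0, and 1 or 2 genes in 4 of the other lists.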

How the data were processed

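Ratios of MTX-treated over DMSO-treated BEAS-2B RNA came from 3 two-colour arrays. Per the series' design text, slides were read on a GenePix scanner with GenePix 4.1, the local median background was subtracted and LOWESS normalisation applied. The deposited table holds 1 log ratio per probe and array, with the base unstated. Log10 was the working unit of the deposited values and log2 is possible; p-values do not depend on it. Column medians were 0.00137, 0.00222 and 0.00194. Genome build and spot filters are not given in the sources used here.

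Of 31615 probes, 22472 had 1 symbol in the platform annotation, 80 several and 9063 none. The 16867 probes with 1 symbol and values on at least 2 arrays were averaged per gene and array, giving 11741 genes, 9488 with 3 values and 2253 with 2. Missing probes were not imputed. All 39 member symbols matched RefSeq. A two-sided test of each mean against 0 used limma 3.58.1 (lmFit, eBayes; R 4.3.3), and p-values were adjusted over all genes by Benjamini-Hochberg, with a threshold of 0.05. SDs are over arrays, whose number limits the precision. The script was tested on simulated data.

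Described in full were called members, the 4 highest and 4 lowest others, and at most 4 called genes per partner list; further members were added so that each is accounted for. Members and lists were chosen with earlier results of these data known. Alternatives varied probes, summary, centring, scale, weights, spread model, position and arrays. For position, the mean of probes within 50 identifiers on each side was subtracted. A significance analysis of microarrays, named in the design text without settings, was not rerun. Figures were drawn with matplotlib 3.10.9.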

Additional observations from a re-analysis of the deposited data

How the results depend on the processing

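Across 12 alternatives both calls and means moved, and the share of all genes called, given below, moved as well. The count of higher members was 2; it was 4 with complete probes, 1 with every probe of any coverage, 5 with a single probe per gene, 1 with centred and 1 with centred and scaled arrays, and 10 with array weights. The count of lower members was 2; it was 9, 1 and 4 under the first 3 of these, 12 with array weights and 1 with the local mean subtracted. Array weights gave array 2 a weight of 3.62, against 0.784 and 0.353, and called 5784 genes. Leaving out 1 array gave 0 to 5 higher and 0 to 9 lower members, and a median of member means from -0.020 to 0.016. That median was 0.019 with array weights. For partner genes and the left-out DDX genes, 9 of 80 were called, against 21 of 69 with complete probes, 14 of 80 with a single probe and 42 of 80 with array weights. Without array 3 it was 28 of 72, and without array 1 or array 2 it was 0. Of all genes, 13.9% were called, against 29.0% with complete probes, 16.5% with a single probe and 49.3% with array weights. It was 8.85% with every probe of any coverage and 14.22% with the local mean subtracted. Centred arrays gave 13.75%, and centred and scaled arrays 13.47%. That share was 40.2% without array 3 and 0 without array 1 or array 2. Probe by probe 9 member probes were called, against 4 probes of called genes. The 12 genes described in full were called or had the most extreme means of the others. Of their means 0 changed sign in 138 refits. Those refits reuse the same arrays, and the genes were picked as called or extreme in them, so a kept sign is no independent support. Some means moved widely: DDX24 from -0.29 to -0.086, DDX60 from -0.20 to -0.080 and DDX3X from 0.025 to 0.12. The call was lost in 14 refits and gained in 17. DDX20 and DDX23 lost theirs only when array 1 or array 2 was left out. Some members nearer 0 did change sign: DHX15 averaged -0.028 with the local mean subtracted, and DDX6 averaged 0.0051 without array 2. No paired analysis was possible because the 3 arrays form 1 group of ratios. Intensities were not used, so that dim spots and background could not be varied.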

Other observations

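Helicase probes outside the tested set had values on a single array. DDX19B gave 0.105, DDX51 -0.0411, DDX60L -0.0411 and DHX37 0.0374, all on array 3. A further probe of DDX3X gave 0.359 on array 2 and one of DDX17 gave 0.188 on array 3, higher than the tested probes of those genes on the same arrays. Further probes read on array 2 alone gave -0.105 for DDX42, -0.0938 for DDX50, -0.0701 for DDX24 and -0.0553 for DHX57. One of DHX9 gave 0.0049 on array 3. Against the tested probes on the same arrays, those of DDX42 and DDX50 lay lower, those of DHX57 and DHX9 higher, and that of DDX24 between. Neighbouring probe numbers had correlated log ratios, with 0.198, 0.229 and 0.135 on arrays 1, 2 and 3, and the part of this in single helicase values was not tested.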
